A study of Mus musculus with 6 samples.

Results

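The miRNAs described here are 5 mature mouse miRNAs known to be induced by inflammatory NF-κB signalling or by the transcription factor CREB, namely mmu-miR-146a-5p, mmu-miR-146b-5p, mmu-miR-155-5p, mmu-miR-132-3p and mmu-miR-212-3p (written below without the species prefix). They were chosen by name, as 5 of the 1963 miRNA probes on the array. Total RNA came from lungs taken at day 21 after an injection into the trachea, and each mouse had an array of its own. The injection held saline for 3 mice, called untreated WT, and 1.5 U/kg bleomycin (BLM) for the other 3, called WT-BLM. All 6 were C57Bl6 mice without a transgene, young adults by the age that the study's methods give. BLM damages DNA, and in the mouse lung it is a standard way to provoke inflammation followed by scarring. Arrays of the NF-κB-inhibited IKBM strain were not analysed here.

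NF-κB is a family of transcription factors that cytokines and microbial products release from its inhibitor IκB, after which it enters the nucleus and switches on inflammatory genes. Both miR-146 members are induced by this pathway and repress Traf6 and Irak1, signalling proteins upstream of NF-κB, so that they are known as a brake on it. In contrast, miR-155 is induced in activated macrophages and lymphocytes and represses Socs1 and Inpp5d, which restrain cytokine signalling, while miR-132 and miR-212 are transcribed together from a locus that CREB activates.

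The mature sequences are shown because 2 pairs of these miRNAs are close relatives, which bears on what each probe measured. They were taken from RefSeq on the mouse build GRCm38.p6 and run 5′ to 3′, with the seed in capitals, which is the stretch of bases 2 to 8 that pairs with target mRNAs. All 5 were found there, and each was the same as the target sequence listed for its probe on the array.
miR-146a-5p: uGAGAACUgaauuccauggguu
miR-146b-5p: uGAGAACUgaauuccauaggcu
miR-155-5p: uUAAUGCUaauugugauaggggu
miR-132-3p: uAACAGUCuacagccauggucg
miR-212-3p: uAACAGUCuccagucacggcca

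The 2 miR-146 members share the seed GAGAACU and 20 of 22 bases. Counted from the 5′ end, miR-146b-5p differs from miR-146a-5p by G18A and U21C. The seed AACAGUC is shared by miR-132-3p and miR-212-3p, which have 17 of 22 bases in common and differ by A10C, C14U, U17C, U20C and G22A. The seed of miR-155-5p is UAAUGCU. No other probe on the array targets a miRNA with one of these 3 seeds. How much of a miRNA binds to the probe of its relative was not tested.

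The genes lie apart, except for one pair. On GRCm38.p6, miR-146a-5p lies at chr11:43374435-43374456 on the minus strand, and RefSeq lists no other gene over it. In contrast, miR-146b-5p lies at chr19:46342790-46342811 on the plus strand, within the span of the long non-coding RNA gene Gm36493. The miR-155-5p sequence lies at chr16:84714143-84714165 on the plus strand, within the span of its host non-coding RNA gene Mir155hg. On the plus strand of chromosome 11, miR-212-3p at chr11:75173443-75173464 and miR-132-3p at chr11:75173723-75173744 come from hairpins that are 203 bases apart.

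Each array held 5022 spots, with each miRNA probe on 2 spots and 800 empty spots. Detection on an array required a mean probe intensity more than 3 SD of the empty spots above their median, and limma was run on the 275 probes that met this on 3 or more arrays. The arrays were not equally sensitive: the SD of the empty spots reached 59.3 for untreated WT mouse 3 and 45.2 for WT-BLM mouse 1, while the other 4 had 8.01 to 18.1. Only 132 and 176 probes were detected on those 2 arrays, against 270 to 365 on the others. Untreated WT mouse 2 stood apart in striated muscle miRNAs. Its normalized log2 intensity of miR-206-3p, a skeletal muscle miRNA, was 10.32, while this miRNA was not detected on the other arrays, where it read 6.12 to 6.44.

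By this rule, both miR-146 members were detected in all 6 mice and miR-155-5p in 5, miR-132-3p was detected in 2 WT-BLM mice, and miR-212-3p was detected in none. Of the 3 miRNAs that were tested, only mmu-miR-146b-5p showed no overlap between the groups, with the WT-BLM mice higher. None of the 3 passed an adjusted p of 0.05 in limma, as was the case for all tested probes, of which 0% were called. At an unadjusted p under 0.05, 1 of the 3 passed, against 1.82% of the 275 tested probes. The precision is that of 3 mice a group, for which 0.10 is the lowest p that an exact two-sided permutation test can reach.

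**Figure D1:**
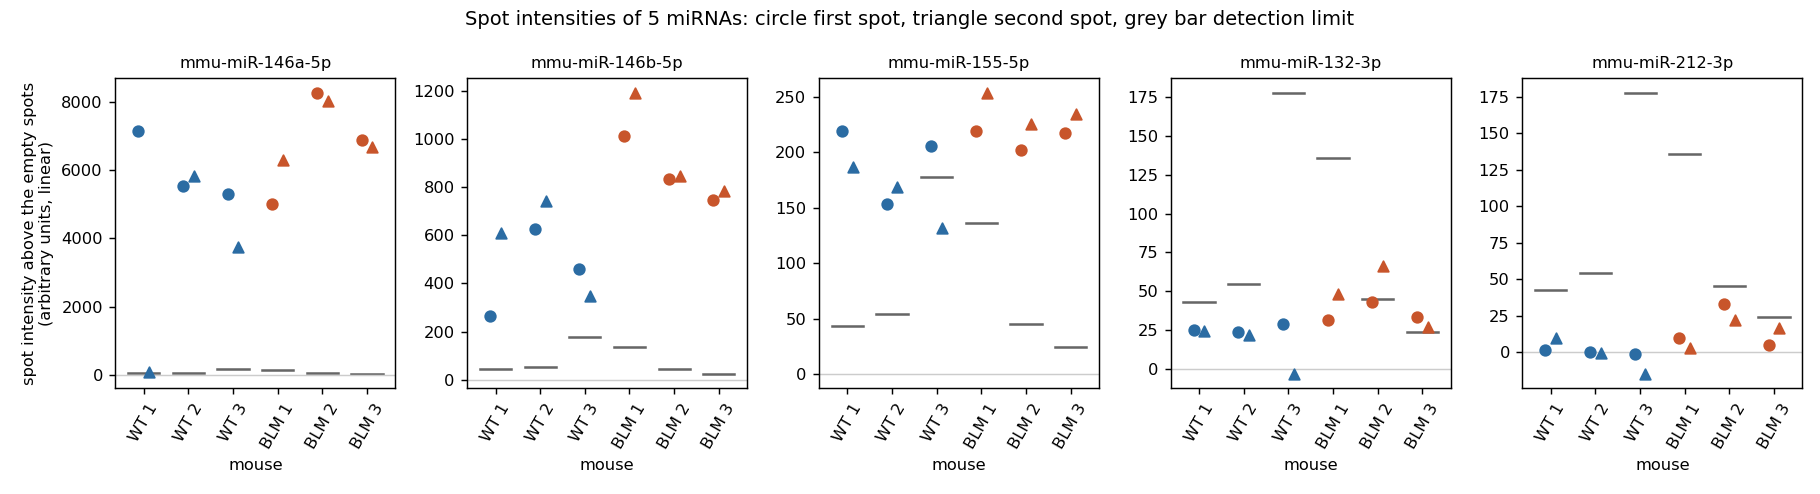
Spot intensities of the 5 miRNAs above the median of the empty spots, in arbitrary linear units, for each of the 3 untreated WT mice (blue) and the 3 WT-BLM mice (orange, labelled BLM); circles are first spots, triangles second spots and grey bars the detection limit of each array, and each panel has its own axis. The second miR-146a-5p spot of untreated WT mouse 1 reads 92.5 beside a first spot of 7164, and all spots of miR-212-3p lie below the limit.

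Among the NF-κB feedback miRNAs, mmu-miR-146b-5p had a fold change of 1.70 in WT-BLM lungs, which did not pass the adjusted p. Its intensity above the empty spots was 437, 684 and 404 in untreated WT mice 1, 2 and 3, against 1101, 839 and 765 in WT-BLM mice 1, 2 and 3. The lowest WT-BLM mouse thus lay above the highest untreated WT mouse on this scale. After normalization, the log2 intensities were 8.90, 9.23 and 9.30 in untreated WT mice, against 10.37, 9.51 and 9.84 in WT-BLM mice, with means of 9.14 ± 0.21 and 9.91 ± 0.43 (SD, n = 3). The groups did not overlap, and the gap between them was narrow, from 9.30 in untreated WT mouse 3 to 9.51 in WT-BLM mouse 2.

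The log2 fold change of miR-146b-5p was 0.77 (SE 0.28, 95% interval 0.11 to 1.42), with an unadjusted p of 0.0285 and an adjusted p of 1 in limma. The exact two-sided permutation p was 0.1, the smallest that this design allows. It ranked 4th by p and 7th by log2 fold change among the 275 tested probes. Groups without overlap and higher in WT-BLM were found for 4% of the tested probes, 11 of 275, beside 1 of the 3 miRNAs tested here.

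Both miR-146b-5p spots of untreated WT mouse 1 read unequally, at 264 and 610 above the empty spots, a difference of more than 1 on the log2 scale. With its brighter spot alone, that mouse read 9.44 on the normalized log2 scale. The log2 fold change was then 0.58 (SE 0.26, 95% interval -0.03 to 1.20, limma unadjusted p = 0.0589, adjusted p = 1), and the groups still did not overlap. Without untreated WT mouse 2, in which muscle miRNAs were high, it was 0.81 (limma unadjusted p = 0.0519). Left-out mice moved it between 0.53, without WT-BLM mouse 1, and 0.96, without WT-BLM mouse 2.

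The authors' own normalized intensities, which are linear, were 388, 508 and 546 for miR-146b-5p in untreated WT mice 1, 2 and 3, against 1111, 596 and 725 in WT-BLM mice. Their means were 481 ± 82.5 and 811 ± 268 (SD, n = 3), a ratio of 1.69. Here too, every WT-BLM mouse was above every untreated WT mouse, and WT-BLM mouse 1 was the highest.

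Its relative mmu-miR-146a-5p was bright in all 6 mice, and 1 spot decided its value. The log2 intensities were 10.05, 12.01 and 12.71 in untreated WT mice 1, 2 and 3, against 12.65, 12.32 and 12.80 in WT-BLM mice, with means of 11.59 ± 1.38 and 12.59 ± 0.24 (SD, n = 3). The groups overlapped, since untreated WT mouse 3 lay above WT-BLM mice 1 and 2. The log2 fold change was 1.00 (SE 0.62, 95% interval -0.46 to 2.46, limma adjusted p = 1), and the exact two-sided permutation p was 0.3.

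The low value belonged to untreated WT mouse 1, whose 2 spots read 7164 and 92.5 above the empty spots. The spread of brightness within each of these spots was similar, at 8.64% and 8.94% of its intensity. On the log2 scale the spots differed by -5.73, the widest gap of the 275 tested probes on that array. Of these probes, 29 had spots that differed by more than 1 there, and the second spot was the dimmer one in 19 of them. Among 11 tested probes within 3 rows and columns of the dim spot, 1 had such a gap, and the median difference of their second from their first spot was 0.03. The source of the gap was not tested.

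With the brighter spot alone, untreated WT mouse 1 read 12.92, the highest of the 6 mice. The log2 fold change of miR-146a-5p was then 0.05 (SE 0.29, 95% interval -0.63 to 0.72), with an exact two-sided permutation p of 0.9. When the unequal pair was left out, with 2 untreated WT mice remaining, it was 0.23, as it was without untreated WT mouse 1. The authors' normalized intensities were 6839, 4258 and 6441 in untreated WT mice, against 5933, 5458 and 6321 in WT-BLM mice. Their means of 5846 ± 1390 and 5904 ± 432 (SD, n = 3) gave a ratio of 1.01, with untreated WT mouse 1 as the highest.

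**Figure D2:**
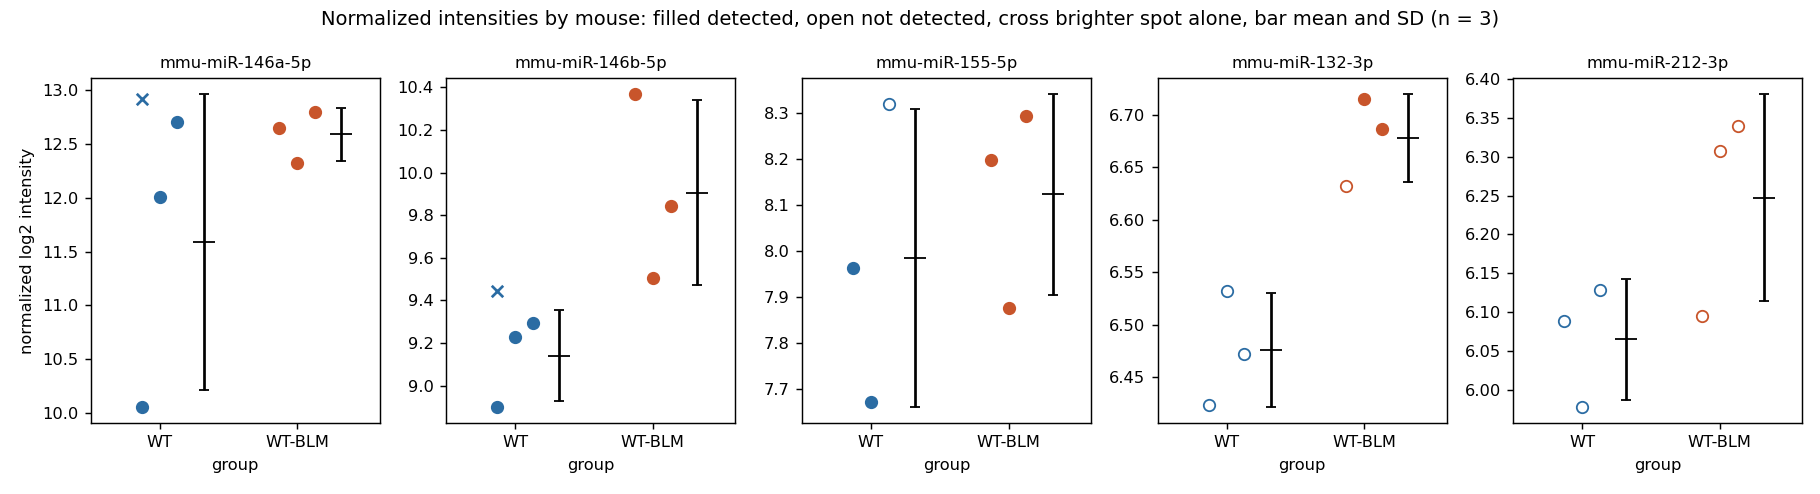
Normalized log2 intensities of the 5 miRNAs by mouse in untreated WT (blue) and WT-BLM (orange), with filled points where the probe was detected and open points where it was not, and bars for mean and SD (n = 3). Crosses give untreated WT mouse 1 by its brighter spot alone, at 12.92 for miR-146a-5p and 9.44 for miR-146b-5p; each panel has its own axis, and those of miR-132-3p and miR-212-3p span less than 1 log2 unit.

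As both miR-146 members were measured on every array, the difference of their log2 intensities cancels a shift of the whole array. Only its change between groups is read, since 2 probes cannot be compared in level. The difference, miR-146b-5p minus miR-146a-5p, was -1.15, -2.78 and -3.41 in untreated WT mice 1, 2 and 3, against -2.28, -2.81 and -2.96 in WT-BLM mice. The WT-BLM mice lay within the range of the untreated WT mice. The means differed by -0.24 between the groups, with an exact two-sided permutation p of 0.8.

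With the brighter spots, untreated WT mouse 1 read -3.47, and the change turned to 0.54 (exact two-sided permutation p = 0.3). In the authors' values it was 0.68 with the same exact permutation p of 0.3. The groups overlapped in all 3 versions, so that a difference in response between miR-146b-5p and miR-146a-5p was not resolved with 3 mice per group.

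**Figure D3:**
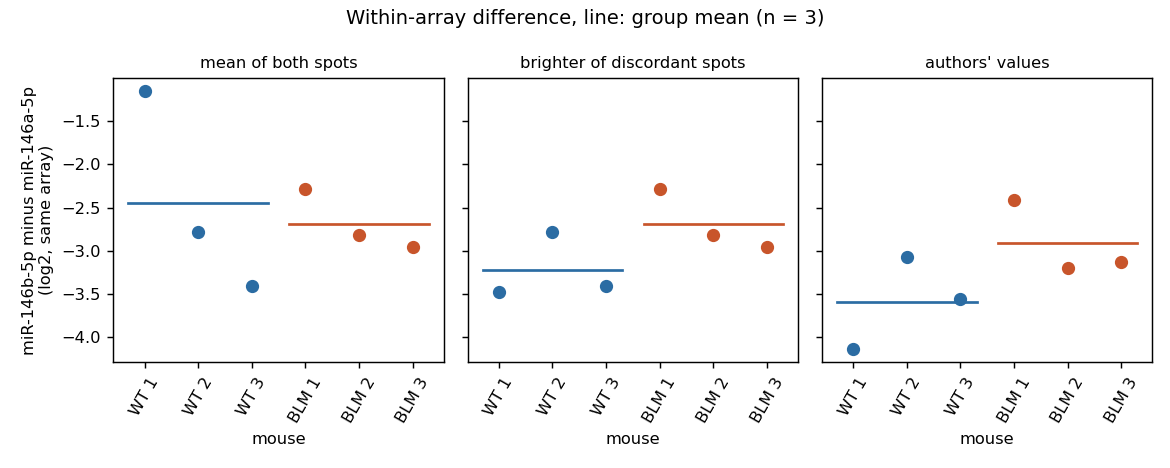
Difference in log2 intensity between miR-146b-5p and miR-146a-5p on the same array, for each untreated WT (blue) and WT-BLM (orange, labelled BLM) mouse, from the mean of both spots, from the brighter spot of unequal pairs and from the authors' values; lines are group means (n = 3). Untreated WT mouse 1 moves from -1.15 to -3.47 with the choice of spot, and the groups overlap in each panel.

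The next miRNA, mmu-miR-155-5p, differed between the groups by less than the spread between mice. Its log2 intensities were 7.96, 7.67 and 8.32 in untreated WT mice 1, 2 and 3, against 8.20, 7.88 and 8.29 in WT-BLM mice, with means of 7.99 ± 0.32 and 8.12 ± 0.22 (SD, n = 3). The highest value was that of untreated WT mouse 3, on whose less sensitive array it was not detected. The log2 fold change was 0.14 (SE 0.25, 95% interval -0.46 to 0.73, limma adjusted p = 1), and the exact two-sided permutation p was 0.7.

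This interval holds changes of miR-155-5p from 0.728-fold to 1.66-fold, so that a moderate change in either direction was not excluded. It moved to -0.02 when untreated WT mouse 2 was left out, and to 0.31 when untreated WT mouse 3 was. The authors' intensities were 158, 114 and 231 in untreated WT mice, against 211, 127 and 203 in WT-BLM mice, with means of 168 ± 59.1 and 180 ± 46.4 (SD, n = 3) and a ratio of 1.08.

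The CREB-responsive pair was dim. The intensity of mmu-miR-132-3p above the empty spots was 24.8, 23.0 and 12.8 in untreated WT mice 1, 2 and 3, against 39.8, 54.9 and 30.3 in WT-BLM mice. All WT-BLM mice were above all untreated WT mice, and only WT-BLM mice 2 and 3 were above the detection limit of their arrays. It was therefore not among the tested probes, and no fold is given against untreated WT mice, in which it was not above background. Its normalized log2 intensities were 6.42, 6.53 and 6.47 in untreated WT mice, against 6.63, 6.71 and 6.69 in WT-BLM mice. The share of all 1963 probes with such a separation on these scales was not counted.

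When all 1963 probes were fitted with no filter on detection, miR-132-3p had an unadjusted p of 0.0230 and an adjusted p of 0.97 in limma, on values that were below the detection limit in all untreated WT mice. A narrower limit from the robust SD of the empty spots detected it in 2 untreated WT and 3 WT-BLM mice. Among the 570 probes then tested, its unadjusted p in limma was 0.138 and its adjusted p was 1. Of these probes, 2.11% had an unadjusted p under 0.05 in limma. In the authors' values, miR-132-3p read 15, 18 and 22 in untreated WT mice, against 35, 27 and 30 in WT-BLM mice, with means of 18.3 ± 3.51 and 30.7 ± 4.04 (SD, n = 3). The groups did not overlap, and the values were low, on a scale where the 1963 miRNA probes had a median of 3 or 4 on each array.

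The probe of mmu-miR-212-3p was not above the detection limit in any mouse, and with the narrower limit it was detected in 2 WT-BLM mice and no untreated WT mouse. Above the empty spots it read 5.86, 0.025 and -8.15 in untreated WT mice 1, 2 and 3, against 6.15, 27.6 and 10.9 in WT-BLM mice. The groups overlapped on the log2 scale, at 5.98 to 6.13 against 6.09 to 6.34, and no fold is given. The authors' values were 3, 0 and 0 in untreated WT mice, against 3, 11 and 18 in WT-BLM mice. Over all 1963 probes, 3.06% had groups without overlap, higher in WT-BLM, in the authors' values, as did 2 of the 5 miRNAs described here, miR-146b-5p and miR-132-3p.

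The opposite arms of the 5 hairpins, which are usually degraded after processing, were all on the array, and none was tested. Only miR-155-3p was detected, on the array of untreated WT mouse 1 alone. Its spots there read 2.7 and 87.6 above the empty spots, and the brightness within the second varied by 59.0% of its intensity. For miR-146b-3p, the partner of the member that did not overlap between groups, the log2 intensities were 6.04 to 6.18 in untreated WT mice, against 6.11 to 6.41 in WT-BLM mice, all below detection.

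**Figure D4:**
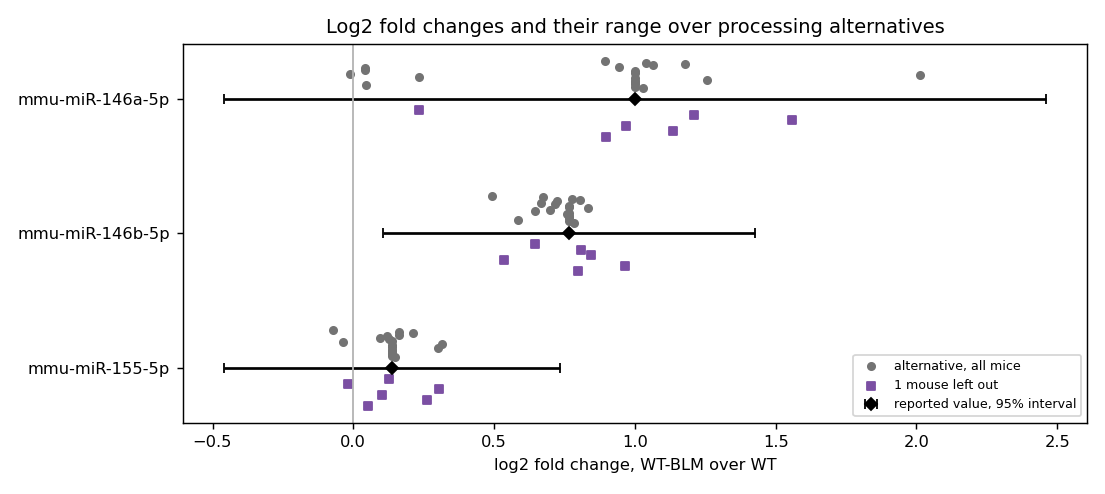
Log2 fold changes, WT-BLM over WT, of the 3 miRNAs that were tested, with 95% intervals (black diamonds), each alternative with all mice (grey circles) and each fit with 1 mouse left out (purple squares). For miR-146b-5p all points lie between 0.49 and 0.96, while those of miR-146a-5p spread from -0.013 to 2.01.

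Other miRNAs of the same biology were counted in lists. Of 8 further miRNAs that inflammatory signalling induces, 6 were tested, of which 3 were higher and 3 lower in WT-BLM, with a median log2 fold change of 0.07 and a range of -0.17 to 0.56. Over all 275 tested probes the median was 0.04. None of the 6 passed an unadjusted p of 0.05, against 1.82% of all tested probes, or had groups without overlap, against 13 of 275 in either direction, so that a count of 0 is no result about this list. The highest was let-7e-5p, at 11.70, 12.37 and 11.37 in untreated WT mice, against 12.21, 12.26 and 12.64 in WT-BLM mice, where untreated WT mouse 2 lay above WT-BLM mice 1 and 2. Its spots were unequal on 1 array, and its log2 fold change of 0.56 became 0.31 with the brighter one, while the median of the list became 0.11 (4 higher, 2 lower). Another of them, miR-21a-5p, which is known to be raised in fibrotic tissue, had a log2 fold change of 0.14 (SE 0.35, limma adjusted p = 1).

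Of 8 miRNAs reported to target genes of the NF-κB pathway, 7 were tested, with 3 higher and 4 lower in WT-BLM and a median log2 fold change of -0.01 (range -0.20 to 0.46). Only miR-199a-5p, which is reported to repress the NF-κB kinase gene Ikbkb, had groups without overlap, higher in WT-BLM, as did 4% of all tested probes. Its log2 intensities were 9.97, 10.07 and 9.63 in untreated WT mice, against 10.45, 10.23 and 10.18 in WT-BLM mice, a log2 fold change of 0.40 (SE 0.23, limma adjusted p = 1). Its spots were unequal on 1 array, and with the brighter one the log2 fold change was 0.19 and the groups overlapped. The induced and the targeting lists share miR-9-5p, which was not detected, and miR-301a-3p, whose log2 fold change of -0.12 became 0.08, with groups that no longer overlapped, under the brighter spot of an unequal pair.

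In whole lung, more RNA per cell and more cells of a type cannot be told apart. The leukocyte markers, which stand for cells rich in miR-155 and miR-146a, differed by less than their spread between mice. All 4 were tested, and their log2 fold changes were 0.21 for miR-142a-3p, -0.02 for miR-142a-5p, 0.00076 for miR-223-3p and 0.16 for miR-150-5p, each with a limma adjusted p of 1. The spots of miR-223-3p were unequal on 1 array, and with the brighter one its log2 fold change was -0.18. Their summed linear intensity was 4639 to 4908 in untreated WT mice, against 4142 to 5717 in WT-BLM mice. Of the endothelial markers, miR-126a-3p had a log2 fold change of 0.76 (SE 0.34, limma adjusted p = 1) with groups that overlapped, as large as that of miR-146b-5p, and 0.48 with the brighter spot of an unequal pair, while miR-126a-5p had 0.22. The summed linear intensity of this pair was 7120 to 16600 in untreated WT mice, against 16160 to 21750 in WT-BLM mice. The part of the cell makeup in the difference of miR-146b-5p was not tested.

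Markers of other cell types were counted in the same way. All 6 epithelial markers of the miR-200 family and miR-375-3p were tested, with a median log2 fold change of 0.20 (4 higher, 2 lower), and both endothelial miR-126a arms were higher, with a median of 0.49. The 3 erythroid markers had a median of 0.03. Both smooth muscle markers were lower, with a median of -0.47, as were the 2 tested striated muscle markers, with a median of -0.95, where untreated WT mouse 2 was the highest of all mice. With the brighter spot of unequal pairs the medians were 0.09 for epithelial, 0.35 for endothelial, -0.14 for smooth muscle and -1.20 for striated muscle markers. The striated muscle marker miR-133a-3p then had a log2 fold change of -1.13, with groups that no longer overlapped. The share of all tested probes so separated with brighter spots was not counted. With the mean of both spots, none of these markers passed an unadjusted p of 0.05 in limma, beside 1.82% of all tested probes, and nothing is read from that count.

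**Figure D5:**
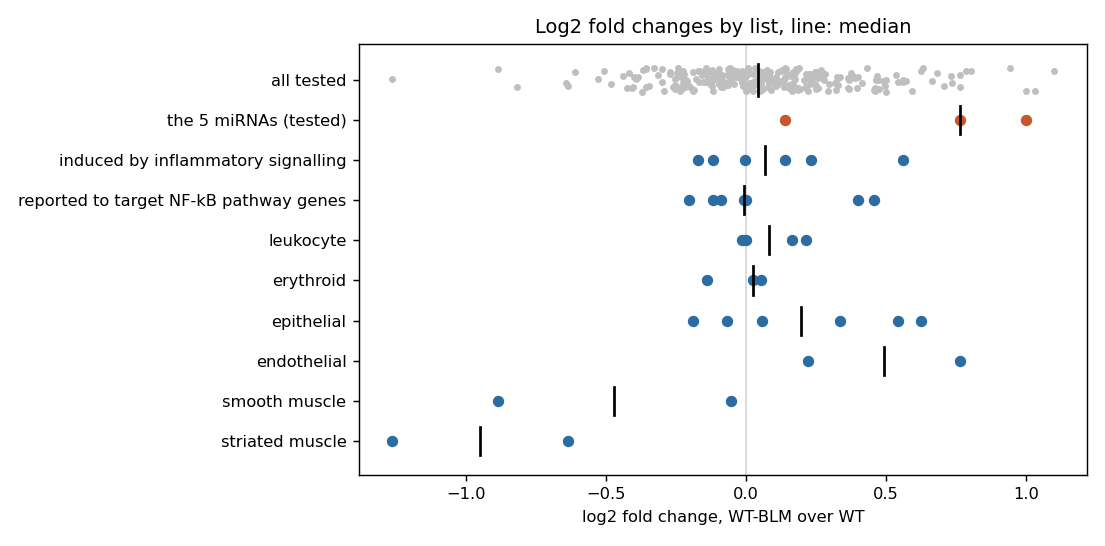
Log2 fold changes, WT-BLM over WT, of all 275 tested probes (grey), of the 3 tested miRNAs described here (orange) and of the tested members of each list (blue), with the median as a black line. The induced and targeting lists have medians of 0.07 and -0.01, beside 0.04 over all tested probes.

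The tested probes whose log2 intensities ran most like those of miR-146b-5p over the 6 arrays were let-7j, miR-20a-5p and miR-34a-5p, with Pearson correlations of 0.85, 0.85 and 0.83. With brighter spots they were miR-34a-5p (0.89), miR-6937-5p (0.88) and miR-126a-5p (0.84), so that only miR-34a-5p stood on both lists. For miR-146a-5p they were miR-99a-5p (0.99), miR-29c-3p (0.97) and miR-28c (0.96), and with brighter spots miR-10a-5p (0.96), let-7g-5p (0.93) and miR-3963 (0.91). All 3 names thus changed with the choice of spot. For miR-155-5p they were miR-429-3p (0.96), miR-497a-5p (0.95) and miR-3068-3p (0.93). These were chosen as the highest of 275 over 6 arrays that share their normalization and are descriptions only.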

How the data were processed

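Lung miRNA of 3 untreated WT and 3 WT-BLM mice was measured on one-dye (Cy3) µParaflo arrays by a service provider, and the groups were taken from the sample labels. Spot files deposited by the authors give a median intensity per spot, with no background removed, and the spread within the spot. A second deposited file holds background-subtracted, normalized intensities as linear whole numbers. Its normalization method was not given in the sources used here. Against the log2 values computed here, log2 of the deposited values correlated at 0.974 to 0.996 across the 116 probes seen on every array (probes are not independent replicates).

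The computation used limma 3.58.1 under R 4.3.3. Normexp with an offset of 50, fitted on all spots, was followed by removal of control spots, quantile normalization on the log2 scale and averaging of both spots. The offset shrinks fold changes of dim probes. The functions lmFit and eBayes gave p-values for the 275 probes that were detected on 3 or more arrays, adjusted by Benjamini-Hochberg. Exact permutation tests of single values were two-sided. The fit had no block, since the labels do not say that mice of the same number were paired. Deviations from the group mean correlated at 0.16, 0.03 and 0.07 between mice of the same number.

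The 5 miRNAs and the 10 lists were chosen with earlier results of these data known. Other miRNAs are named where they are opposite arms or leukocyte markers, where a listed miRNA had groups without overlap or an unadjusted p under 0.05, or as the 3 probes most like a tested member. Beyond this rule, let-7e-5p, miR-21a-5p, miR-126a, miR-146b-3p, miR-206-3p and the miRNAs that lists share were named after their values were seen. Alternatives were other normalizations, background corrections, filters, spot summaries, variance models, the deposited values and the methods' t-test, with each mouse left out in turn. The steps were tested on simulated data with changes in both directions and with all changes upward. Quantile normalization takes changes to balance, and a far larger share of calls was false when all went upward.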

Additional observations from a re-analysis of the deposited data

How the results depend on the processing

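The number of the 5 miRNAs with an adjusted p under 0.05 was 0 under all 20 alternatives with all mice, of which 3 were chosen after seeing the data (the brighter spot of unequal pairs, the robust SD and subtraction of the empty-spot median), and with each mouse left out. The log2 fold change of miR-146b-5p was positive throughout, from 0.49 to 0.83 over the alternatives and 0.53 to 0.96 with a mouse left out. Filters, the variance trend, the block and the t-tests leave any log2 fold change as it was, so that its sign could not differ there. That of miR-146a-5p ran from -0.013 to 2.01 and from 0.23 to 1.56, and was -0.013 with the first spot alone. That of miR-155-5p ran from -0.072 to 0.31 and from -0.018 to 0.31. For miR-155-5p it was -0.072 with scaling to the 75th percentile and -0.038 with first spots. Under that scaling, all tested probes had a median of -0.22 in place of 0.04, and relative to that median miR-155-5p lay higher. For miR-132-3p, which did not pass the detection limit in untreated WT mice, no fold is given. Its mean was higher in WT-BLM in 14 of 15 alternatives and lower in 1, that of the 75th percentile. The variance trend, the block and the treatment of unequal spot pairs, which miR-132-3p lacked, could not move this difference. Without the filter, its unadjusted p in limma was under 0.05 in some alternatives and above it in others. It was 0.0239 with last spots, 0.771 with first spots and 0.505 with no normalization.

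The change of miR-146b-5p minus miR-146a-5p was -0.24 and turned to 0.62 and 0.68 in the authors' values with 50 or 1 added, 0.85 with first spots, 0.41 without unequal pairs and 0.54 with brighter spots. With a mouse left out it ran from -0.72 to 0.41. The number with an unadjusted p under 0.05 was 1 and became 0 at the 75th percentile, in the authors' values with 1 added, with last spots, without unequal pairs, with brighter spots, and in the methods' t-test, paired or unpaired. It became 2 without the filter, where miR-132-3p was the other, and with array weights. With a mouse left out it ran from 0 (without untreated WT mouse 1 or 2, or WT-BLM mouse 1 or 3) to 2 (without untreated WT mouse 3). The share of all tested probes under 0.05 was 1.82% in the main fit and was not counted where this number was 2. Nothing is therefore read from a rise of this number.

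With mouse number as a block, it was 0 as well: miR-146b-5p had a log2 fold change of 0.77 with a limma unadjusted p of 0.0564 and an adjusted p of 1, and the numbers share only a label. No block for slide or scan was run, since neither is given in the files. Signal over background limited miR-132-3p and miR-212-3p, and on the array of untreated WT mouse 3 also miR-155-5p.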
